A study of Danio rerio with 6 samples.

Results

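Control zebrafish (Danio rerio) embryos are described here by their own messenger RNA, with no other condition set against them. The series holds 6 libraries, and only the 3 labelled control were used. Their genotype is given as wildtype and their source as embryo. Strain, age and clutch are not given in the sources used here, nor whether the 3 libraries came from separate pools of embryos, so the spread between them may be partly technical. A gene was counted as expressed when it reached 1 RPKM in all 3 controls, RPKM being the reads of a gene scaled by its exonic length and by the reads counted in the library. By that rule 17085 of 31624 listed genes (54.0%) were expressed.

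Bulk RNA of a whole embryo sums every cell type. In zebrafish embryos and larvae, trunk muscle forms a large part of the body and makes its contractile proteins from a few very active genes. The yolk syncytial layer and the liver package yolk lipid with apolipoproteins, and the lens fills with crystallins, the soluble proteins that give it its refractive power. Every growing cell also carries abundant messengers for ribosomal proteins and, from its mitochondria, for subunits of the respiratory chain. Levels are given as RPKM, or as a share of the summed RPKM of a library, so that genes of different length can be compared. Values are in the order control 1, control 2 and control 3.

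The controls held 18708152, 18721589 and 12877132 counted reads. Genes at 1 RPKM or more numbered 18122, 18431 and 17811. The expressed genes took 99.2%, 99.1% and 99.3% of the counted reads. A further 2087 genes reached 1 RPKM in only 1 or 2 controls, 7169 had reads but never reached it, and 5283 had no read. At the edge of the rule, kcnb2, a potassium channel subunit, was just inside at 1.02, 1.01 and 1.00 RPKM, as were kctd16a and hecw2a. Just outside was lrrc30a at 1.94, 2.14 and 0.99 RPKM, with abhd8a and cacna1ha, each at 0.99 RPKM in control 1. Among the expressed genes 14251 had a proper gene symbol, and 2834 (16.6%) had a clone or placeholder name and carried 6.35% of the summed RPKM. Their median level was 7.44 RPKM with quartiles of 3.64 and 15.9. Only 599 genes averaged 100 RPKM or more and 75 averaged 1000 or more.

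The messenger pool was concentrated in few genes. The gene with the highest mean took 1.75% ± 0.188 of the summed RPKM (SD, n = 3), the 10 highest took 11.04% ± 0.904, the 100 highest 36.2% ± 0.657 and the 1000 highest 66.3% ± 0.0679. Without the length correction the same 10 genes held 6.17% of the counted reads and the same 100 held 22.6%. In controls 1, 2 and 3, 246, 244 and 256 genes sufficed for 50% of the summed RPKM. For 90% it took 6695, 6917 and 6606 genes.

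**Figure D1:**
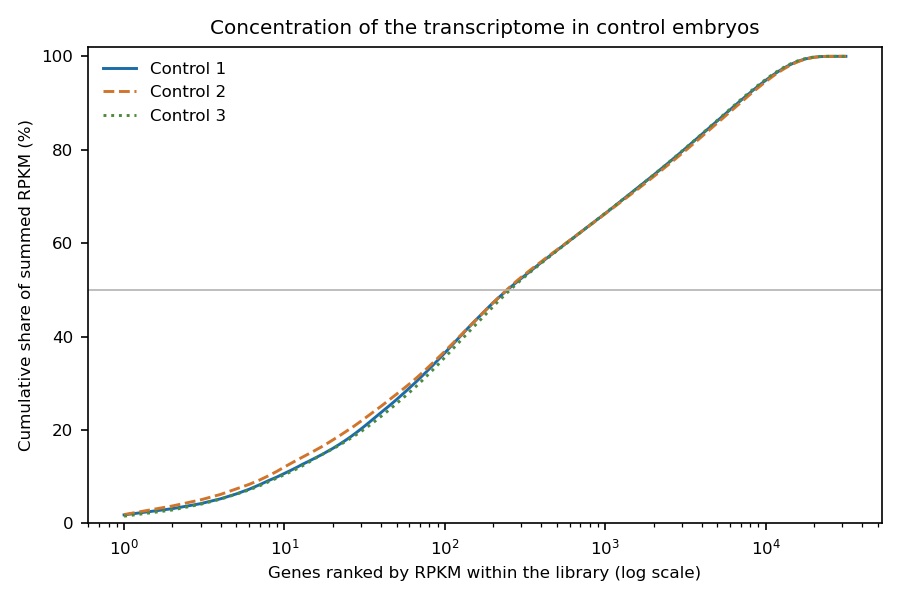
Cumulative share of the summed RPKM (%, y axis) against genes ranked from highest to lowest RPKM within each control library (x axis, log scale), one line per library. The 3 lines nearly coincide and cross the grey line at 50% at 246, 244 and 256 genes.

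Muscle genes headed the list. The most abundant messenger was actc1b, an actin of striated muscle, at 9579, 9909 and 7850 RPKM. The parvalbumins pvalb2 and pvalb1, calcium buffers that let fast fibres relax, followed among nuclear genes at means of 5636 ± 1170 and 5483 ± 767 RPKM. The fast myosin light chain mylpfa had 5206, 5075 and 4596 RPKM. In every one of these muscle genes control 3 was the lowest library. The fast skeletal muscle list, with 57 of 59 genes expressed, held 9.46%, 9.97% and 8.59% of the summed RPKM (9.34% ± 0.698). The defining markers ckma (a muscle creatine kinase, 2237 ± 165 RPKM), tnnt3a (a fast troponin T, 579 ± 45.7) and atp2a1 (the calcium pump of the fast sarcoplasmic reticulum, 981 ± 60.2) were all high. Unlike the 4 genes above, atp2a1 was highest in control 3, at 975, 924 and 1044 RPKM. Over the list 28 of the 57 expressed genes were lowest in control 3 (37.7% of all). The slow fibre list held a far smaller share at 0.252%, over 13 genes found against 59. The fast list also holds actc1b, an actin of striated muscle, so these shares do not measure the fibre types. The slow myosin heavy chain smyhc1 had 59.9, 48.3 and 90.6 RPKM. Its order was not that of the slow fibre list, where 8 of 12 expressed genes were highest in control 2 (37.8% of all). In 7 of the 12 control 3 was lowest (37.7% of all). In such bulk libraries, fewer cells of a type and less RNA per cell cannot be told apart.

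The mitochondrial genome was another source of very abundant messengers, with 6 of the 20 highest genes against 7 for fast muscle. Its 13 protein genes held 6.40%, 7.19% and 6.68% of the summed RPKM. The cytochrome c oxidase subunit mt-co2 had 7007, 9672 and 6830 RPKM, so control 2 stood above the others. The sister subunit mt-co1 had 5418, 6069 and 6269 RPKM and mt-co3 had 4835, 5041 and 5343 RPKM, both highest in control 3. The list of nuclear genes for the respiratory chain and ATP synthase, with 85 of 88 expressed, added 2.07% ± 0.0863.

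By summed RPKM, cytosolic ribosomal proteins were the largest list of all. As a share of counted reads they held 7.68%, beside 7.74% for the fast skeletal muscle list. All 85 ribosomal protein genes found were expressed and together made up 15%, 13.4% and 14.1% of the summed RPKM (14.2% ± 0.803). None was among the 20 highest genes, but they filled 46 of the places among the 100 highest. The highest, rps7, a protein of the small subunit, had 2040, 2172 and 1814 RPKM. The elongation factor eef1a1l1, which delivers aminoacyl-tRNA to the ribosome, had 2268, 2002 and 2065 RPKM and led the translation factor list, which held 1.57% ± 0.0819. Lists of machinery that all cells share came to 29.0% ± 0.633 of the summed RPKM over 344 genes. The 875 genes of the 26 tissue lists held 20.5% ± 0.951. Genes on no list held 49.0%. These sums were not taken on the scale of counted reads, where the order of lists can differ.

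Liver and yolk genes came next among the tissues. The apolipoprotein apoa1a, the main protein of high-density lipoprotein, had 3957, 4794 and 5662 RPKM. Its paralogue apoa1b had 2360, 2644 and 3046 RPKM, and the levels of both were lowest in control 1 and highest in control 3. The third of these genes, apoa2, was instead highest in control 2, at 3445, 4958 and 3682 RPKM. The liver list, with 48 of 59 genes expressed, held 3.82% ± 0.343, and the yolk syncytial and lipoprotein list, which shares apolipoproteins with it and had 18 of 28 expressed, held 2.16% ± 0.177. Transferrin (tfa), the iron carrier of plasma, had 600, 712 and 710 RPKM and the fibrinogen chain fgb had 107, 98.4 and 135 RPKM. Another defining liver marker, the hepatocyte fatty acid binding protein fabp10a, had only 15.4, 8.85 and 1.48 RPKM. That marker was highest in control 1 and lowest in control 3, while tfa was lowest in control 1. The highest gene outside every list was bhmt, a betaine-homocysteine methyltransferase of methionine metabolism, at 2728, 2498 and 3037 RPKM.

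Blood and skin were the remaining tissues with a gene among the 20 highest. The embryonic alpha globin hbae3 had 3381, 3282 and 3252 RPKM, a coefficient of variation (SD over mean, CV) of only 2.05%. The beta globin hbbe1.1 was less even at 1528, 993 and 1201 RPKM, and alas2, the first enzyme of haem synthesis in red cells, had 42.3, 37.0 and 39.5 RPKM. The red cell list, with 22 of 24 genes expressed, held 1.06% ± 0.0686. Keratin 4 (krt4), of the outer skin layer, had 2767, 2619 and 3228 RPKM and krt5, another keratin gene, had 510, 558 and 550 RPKM. The adhesion protein epcam was highest in control 1, at 225, 121 and 136 RPKM. The epidermis list, with 47 of 49 genes expressed, held 1.66% ± 0.0744.

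**Figure D2:**
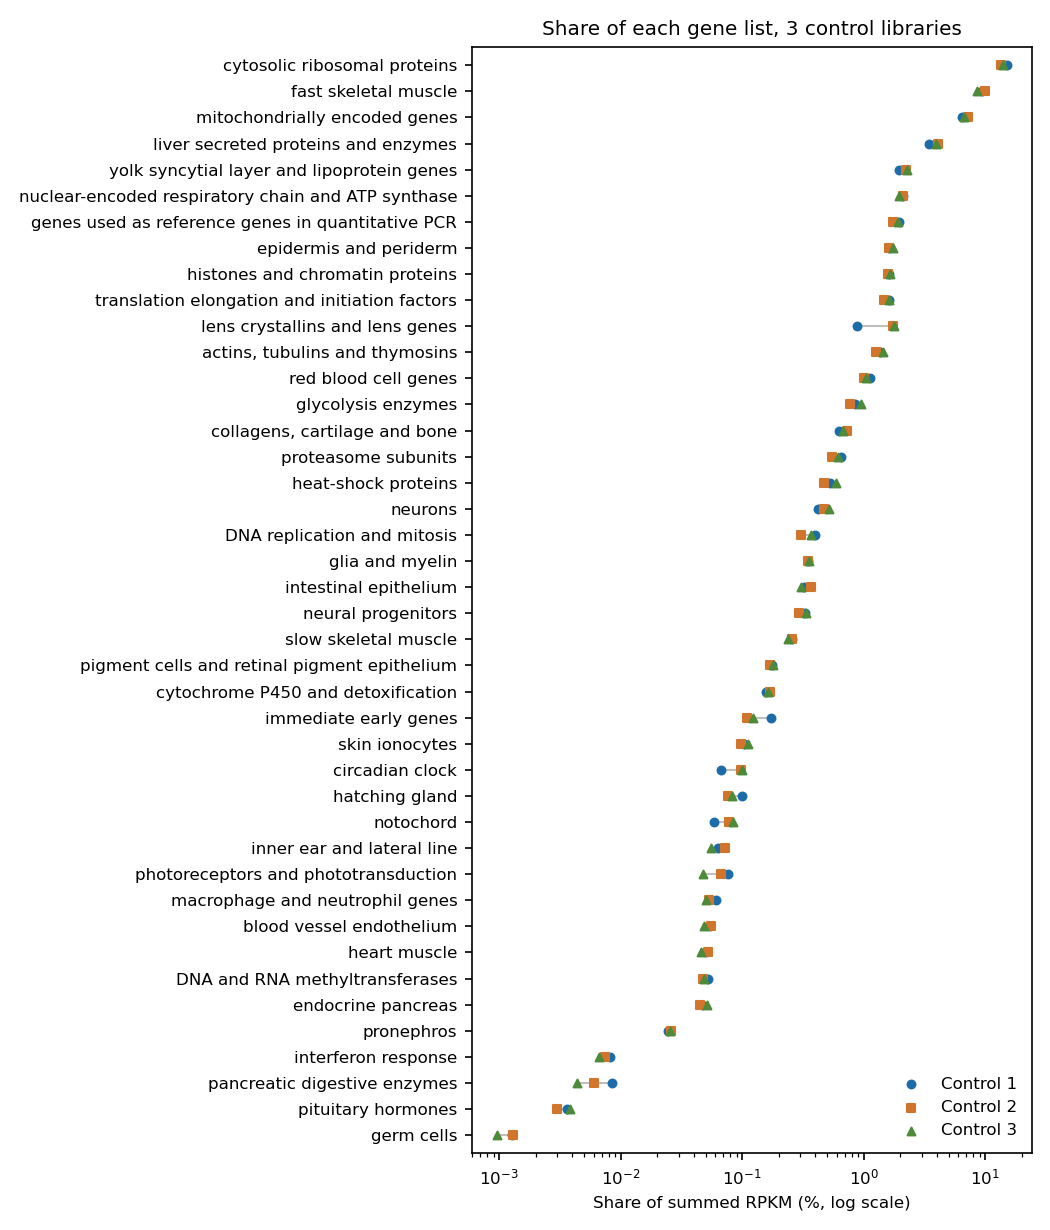
Share of the summed RPKM (%, x axis, log scale) taken by each of 42 gene lists (rows, highest mean at the top) in control 1 (circles), control 2 (squares) and control 3 (triangles), with a grey line joining the lowest and the highest library; lists may share genes. Most rows span little more than a symbol, while lens runs from 0.874% to 1.78%.

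Nervous tissue, vessels, heart and blood defence were present at lower shares. The neuron list, with 73 of 74 genes expressed, held 0.471%, with elavl3, an RNA-binding protein of young neurons, at 92.6, 94.1 and 114.6 RPKM and the synaptic vesicle fusion protein snap25a at 66.3, 69.9 and 72.2 RPKM. Of the glial genes, the radial glia fatty acid binding protein fabp7a had 860, 835 and 896 RPKM. Myelin was much lower: plp1a, a myelin proteolipid gene, had 21.8, 7.78 and 14.5 RPKM, and the myelin basic protein gene mbpa, at 1.36, 2.33 and 0.72 RPKM, was not among the expressed genes. Endothelium held 0.0526%, with 28 of 29 genes expressed. Over that list 17 of the 28 were lowest in control 3, as 37.7% of all expressed genes were, while its defining markers were nearly even between libraries. The vascular cadherin cdh5 had 9.90, 10.19 and 9.60 RPKM and the VEGF receptor kdrl had 8.0, 8.23 and 7.6 RPKM. The heart list held 0.0497%, with the cardiac myosin light chain myl7 at 26.7, 30.1 and 21.1 RPKM. The other defining heart markers were instead highest in control 3, vmhc at 10.9, 15.35 and 16.8 RPKM and tnnt2a at 8.97, 8.65 and 11.06 RPKM. Of 22 heart genes found 20 were expressed. Of these, 10 were highest in control 1, 3 in control 2 and 7 in control 3 (35.8%, 37.8% and 26.4% of all expressed genes). Among white cells, lysozyme (lyz) had 119, 140 and 96.1 RPKM, the neutrophil peroxidase mpx had 5.50, 6.17 and 4.22 RPKM and the macrophage perforin mpeg1.1 had 4.77, 5.37 and 4.81 RPKM. The macrophage scavenger receptor marco differed from these in its order, at 2.32, 1.54 and 1.62 RPKM. Over the whole list 15 of 26 expressed white cell genes were highest in control 1 and 8 in control 2, where 35.8% and 37.8% of all expressed genes were highest in those libraries.

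Glands and pigment cells showed a mixed picture. Pigment markers were clear, with tyrp1b, a melanin synthesis enzyme, at 57.1, 67.5 and 63.7 RPKM and dct, another such enzyme, at 44.1, 37.1 and 40.1 RPKM. The pigment list held 0.175% of the summed RPKM, with 33 of 37 genes expressed. Unlike these markers, 20 of the 33 were lowest in control 3, as 37.7% of all expressed genes were. Insulin (ins) had 21.1, 16.5 and 24.98 RPKM and glucagon (gcga) 2.56, 2.65 and 1.78 RPKM. Digestive enzymes of the pancreas were low, most of them near or under the threshold. Trypsin (try) was the highest enzyme gene of that list, at 7.36, 6.42 and 5.24 RPKM. Only 5 of 25 genes of that list were expressed, among them cpa5, a carboxypeptidase, at 3.08, 2.09 and 1.09 RPKM, while ctrb1, a chymotrypsinogen, was not, at 0.87, 0.33 and 0.32 RPKM. The transcription factor ptf1a, which is also active in the nervous system, led that list at 9.91, 7.50 and 7.30 RPKM. Hatching gland proteases were present, he1a at 198, 91.1 and 96.0 RPKM and he1b at 33.0, 9.05 and 14.5 RPKM, both highest in control 1. Over the hatching gland list 4 of 9 expressed genes were highest in control 1, against 35.8% of all expressed genes. Its member xbp1 was instead lowest in control 1, at 103, 122 and 125 RPKM. No gene of the germ cell list was expressed: the RNA helicase ddx4 had 0.51, 0.70 and 0.69 RPKM and dazl 0.16, 0.07 and 0.03 RPKM. Of the RNA and DNA methyltransferase list 27 of 28 genes were expressed. Its member trdmt1, a tRNA methyltransferase and the gene the series targets in its other libraries, had 3.1, 2.60 and 1.08 RPKM.

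The controls resembled each other, with a spread above counting error in most genes. Pearson's r of log2(RPKM + 1) across the expressed genes was 0.973 for controls 1 and 2, 0.975 for controls 1 and 3 and 0.979 for controls 2 and 3, given as a description since genes are not independent. A chi-square of the counts came to 18.7 to 22.6 per degree of freedom in the 3 pairs. It was taken as a check for repeated sequencing of the same library, which would give a value near 1. The median CV was 14.2% (quartiles 8.77% and 21.4%), against a median of 5.599% from counting reads alone. In 87.5% of expressed genes the CV exceeded the counting value. Counting alone would put some genes above that value too, so 87.5% is not the share of genes with excess spread. The common biological coefficient of variation estimated by edgeR was 0.188. Low genes varied more, with a median CV of 17.9% between a mean of 2 and 5 RPKM and 10.03% at 1000 RPKM or more.

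**Figure D3:**
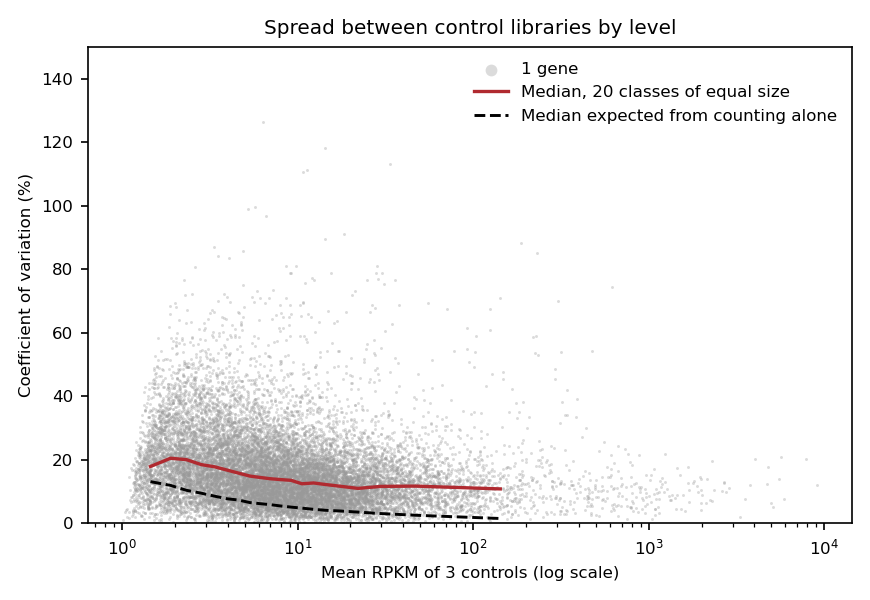
Coefficient of variation over the 3 controls (%, y axis) against mean RPKM (x axis, log scale), one grey point per expressed gene, with the median in 20 classes of equal size (solid line) and the median that counting reads would give by itself (dashed line). The solid line lies above the dashed line over the whole range.

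Large differences were uncommon. The highest control had at least 2 times the RPKM of the lowest in 1094 expressed genes, 6.4% of all, and the ratio reached 4 in 69 genes and 10 in 5. Since a gene had to reach 1 RPKM in its lowest library to be expressed, low genes with larger ratios were left out of these counts. When any 1 control was left out, 432 genes (without control 1), 537 (without control 2) or 529 (without control 3) still had a 2-fold ratio. By the library farther from the middle one on the log2 scale, control 1 was apart and higher in 231 of the 1094 (1.35% of all expressed genes) and lower in 217 (1.27%). Control 2 was apart and higher in 204 (1.19%) and lower in 90 (0.527%), and control 3 higher in 98 (0.574%) and lower in 254 (1.49%). The imbalance of controls 2 and 3 depended on the scaling: with TMM, edgeR's scaling, control 2 was higher in 154 and lower in 116 and control 3 higher in 126 and lower in 191, and with DESeq2 size factors the counts were 149 and 126 for control 2 and 131 and 182 for control 3. Of the 75 genes at 1000 RPKM or more, none had a 2-fold ratio. The even end of the scale was held by brk1, a subunit of the complex that drives actin branching, at 92.2, 91.8 and 91.1 RPKM, and ndufb3, a subunit of respiratory complex I, at 53.0, 53.0 and 53.6 RPKM. At the other end, rhcga, an ammonium transporter of the Rh family, had 15.6, 1.03 and 2.45 RPKM, a ratio of 15.2. None of the 23 genes in use as references for quantitative PCR had a 2-fold ratio. For so few genes that is close to the 6.4% of all expressed genes. Their median level was 68.8 RPKM, and 2.47% of expressed genes with a mean of 50 to 100 RPKM had such a ratio. The CVs of the reference genes ran from 2.07% for sdha, a subunit of succinate dehydrogenase, to 25% for hprt1, a purine salvage enzyme. Of the 23, 15 were highest in control 1 (35.8% of all expressed genes) and 15 lowest in control 2 (29.1% of all).

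**Figure D4:**
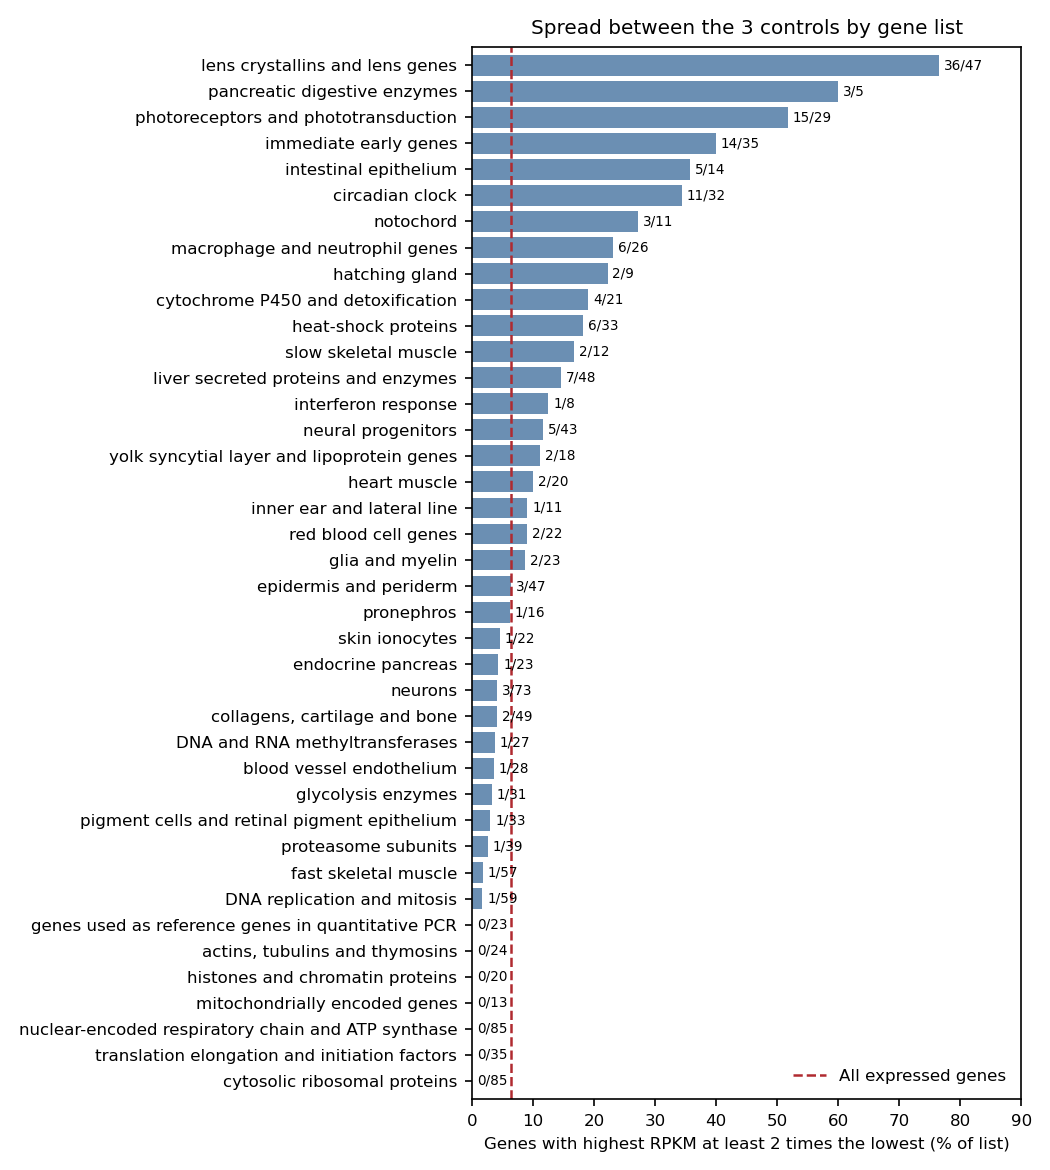
Percentage of the expressed genes of each list (rows, lists with at least 5 expressed genes) whose highest control has at least 2 times the RPKM of the lowest (x axis), with the counts beside the bars and the value over all expressed genes, 6.4%, as a dashed line. Lists past the dashed line include lens (36 of 47), photoreceptor (15 of 29), immediate early (14 of 35) and clock genes (11 of 32), but also pancreatic enzymes (3 of 5), intestine (5 of 14), notochord (3 of 11) and white cells (6 of 26), and ribosomal proteins (0 of 85) lie at 0.

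Lens genes varied most of the larger lists. Of 69 lens genes found 47 were expressed, and a 2-fold ratio was seen in 36 of the 47 (76.6%), and the list took 0.874%, 1.73% and 1.78% of the summed RPKM. None of the 47 was highest in control 1, whereas 35.8% of all expressed genes were. Without control 1 the count was 18, without control 2 it was 27 and without control 3 it was 17. The lens genes did not follow a single order, and a split into families, made after their values were seen, separated the orders. The 21 gamma M crystallins of the crygm2d series, a family that fish have in many copies, summed to 3139, 7725 and 5677 RPKM, and 18 of them were highest in control 2 (37.8% of all expressed genes) and 20 lowest in control 1 (33.2% of all). The copy crygm2d17 had 182, 1104 and 579 RPKM and crygm2d4 had 32.6, 363 and 168 RPKM, a ratio of 11.1. The most abundant copy, crygm2d13, was flatter at 482, 753 and 778 RPKM. These copies resemble each other closely, and how reads that match more than 1 copy were counted or dropped is not given. Levels of single copies and of the sum are therefore uncertain.

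All 10 expressed beta crystallins were instead highest in control 3, as 26.4% of all expressed genes were, and they summed to 1029, 1009 and 2389 RPKM. The defining marker crybb1 had 81.2, 80.4 and 212 RPKM and cryba4 had 205, 161 and 552 RPKM. Of the 6 other expressed gamma crystallins 5 were highest in control 3, against the same 26.4%, among them crygn2 at 159, 81.0 and 454 RPKM. The alpha crystallin cryaa, a small chaperone of the lens, had 3.85, 3.39 and 11.1 RPKM. The same order held outside the crystallins: all 9 expressed lens membrane, filament and factor genes were highest in control 3. The lens water channel mipa had 16.3, 13.6 and 31.2 RPKM and the lens filament protein bfsp2 had 18.1, 17.0 and 58.3 RPKM. For crybb1, mipa and bfsp2 controls 1 and 2 were close and control 3 was higher, while the summed crygm2d series was lowest in control 1 and highest in control 2.

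Photoreceptor genes ran largely the other way. Of 59 genes found 29 were expressed; 15 of the 29 had a 2-fold ratio, and 23 were lowest in control 3, as 37.7% of all expressed genes were. The green cone opsin opn1mw1 had 25.8, 5.92 and 2.36 RPKM, the ultraviolet cone opsin opn1sw1 had 23.1, 9.23 and 4.89 RPKM and the red cone opsin opn1lw2 had 39.7, 23.7 and 11.6 RPKM. Each of these cone opsins was highest in control 1 and lowest in control 3. A transducin gamma subunit of cones, gngt2b, was too, at 53.3, 22.95 and 10.17 RPKM. The cone transducin gnat2 differed in being lowest in control 2, at 6.33, 2.64 and 4.65 RPKM. The most abundant gene of the list, gnb1a, was instead lowest in control 1 and highest in control 3, at 52.6, 59.6 and 59.8 RPKM. The rod genes were flatter, with rhodopsin (rho) at 10.6, 15.3 and 10.8 RPKM and the rod transducin gnat1 at 3.34, 2.63 and 2.21 RPKM. The transcription factor crx, which acts early in photoreceptor formation, was lowest in control 1 at 10.7, 28.6 and 28.3 RPKM. Control 3 was also the library with the fewest reads, and the part of depth in these low values was not tested.

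Immediate early genes, which cells switch on within minutes of a stimulus, set control 1 apart. Of 47 genes found 35 were expressed, and 14 of the 35 had a 2-fold ratio, and in 11 of these control 1 was apart and higher, a pattern seen in 1.35% of all expressed genes. Control 1 was the highest library for 27 of the 35, against 35.8% of all expressed genes. The Fos subunit gene fosab had 33.9, 3.58 and 5.58 RPKM. Its partner gene junbb had 67.2, 18.1 and 27.9 RPKM and the zinc finger factor egr1 had 18.5, 6.55 and 5.90 RPKM. Without control 1 none of the 35 had a 2-fold ratio, without control 2 12 did and without control 3 10 did. The most abundant gene of the list, ier5, showed no such difference at 108, 92.8 and 114 RPKM. The stress-inducible chaperone hsp70l was highest in control 1 too, at 11.2, 2.16 and 6.17 RPKM, but control 2 was the library apart, and lower. The constitutive chaperone hspa8 had 1134, 1020 and 1329 RPKM. Of 33 expressed heat-shock genes 6 had a 2-fold ratio (18.2%, against 6.4% of all expressed genes). Control 2 was apart and lower in 3 of these, and control 1 was higher in 2 and lower in 1.

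Circadian clock genes set the same library apart in the opposite direction. Of 37 clock genes found 32 were expressed. In 11 of the 32 the ratio was at least 2, and in all 11 control 1 was apart and lower, a pattern seen in 1.27% of all expressed genes. Scaling by TMM or by DESeq2 size factors gave 11 as well. The period gene per1b, a repressor of the clock, had 2.12, 15.5 and 14.6 RPKM, and it stands on the immediate early list too. The repressor ciarta had 12.5, 34.7 and 38.0 RPKM, the cryptochrome cry1aa had 7.97, 20.4 and 18.1 RPKM and the nuclear receptor nr1d2b had 12.8, 34.7 and 29.1 RPKM. Controls 2 and 3 lay close together in each of these. Without control 1 no clock gene had a 2-fold ratio, without control 2 8 did and without control 3 10 did. The most abundant clock gene, cry1ba, did not share the pattern at 66.5, 65.7 and 55.0 RPKM. The genes named for these 4 lists, apart from the defining markers and the highest of each list, were chosen after their values were seen. Hour of collection and handling of the embryos are not given in the sources used here, and their part was not tested.

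**Figure D5:**
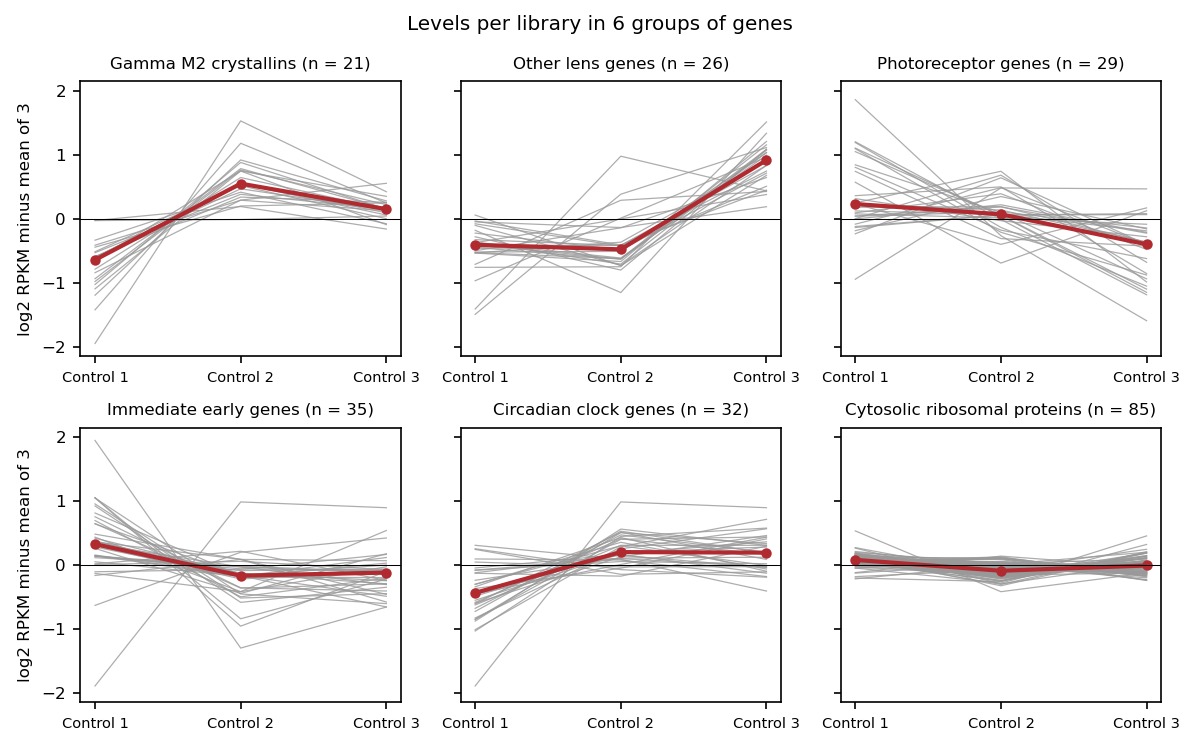
Level in each control library (log2 RPKM minus the gene's mean over the 3, y axis) for the expressed genes of 6 groups, one grey line per gene and the median in red; lines join the values of one gene and imply no order of the libraries. The crygm2d crystallins peak in control 2, other lens genes in control 3, immediate early genes in control 1, clock genes are lowest in control 1, and ribosomal proteins stay near 0.

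Some broad lists leaned to a library mostly by small differences. Ribosomal protein genes, none with a 2-fold ratio, were highest in control 1 in 56 of 85 (35.8% of all expressed genes) and lowest in control 2 in 51 (29.1% of all). Genes of DNA replication and mitosis were lowest in control 2 in 42 of 59, and 1 of the 59 had a 2-fold ratio. The replication clamp pcna had 347, 211 and 275 RPKM. Neural progenitor genes were likewise lowest in control 2 in 32 of 43, and 5 of the 43 (11.6%) had a 2-fold ratio. Collagen, cartilage and bone genes had another order, highest in control 2 in 33 of 49, as 37.8% of all expressed genes were. With TMM or DESeq2 size factors these counts became 50 and 47 for ribosomal genes highest in control 1, 48 for replication genes and 35 for neural progenitor genes lowest in control 2, and 28 for collagen, cartilage and bone genes highest in control 2. With those scalings, 31.8% and 30.8% of all expressed genes were highest in control 2 and 35% and 35.8% lowest. The lean to a low control 2 was not particular to replication and progenitor genes. By RPKM it was also seen in 28 of 39 proteasome genes, 22 of 35 translation factor genes and 19 of 31 glycolysis genes (29.1% of all). The cartilage collagen col2a1a had 181, 292 and 267 RPKM and the bone and skin collagen col1a1a had 501, 496 and 388 RPKM. The linker histone genes h1f0 and histh1l, both singled out after their values were seen, had 180, 400 and 383 RPKM and 71.3, 288 and 302 RPKM. Another linker histone gene, h1fx, had 21.6, 29.0 and 24.1 RPKM. The histone and chromatin list does not hold h1f0 or histh1l, and none of its 20 genes had a 2-fold ratio. For so few genes that is close to the 6.4% of all expressed genes. The aryl hydrocarbon receptor target cyp1a, a detoxifying cytochrome P450, was highest in control 3 at 12.7, 29.0 and 66.6 RPKM. The cytochrome P450 and detoxification list did not share that order, with 5 of 21 expressed genes highest in control 3 (26.4% of all). Of its 4 genes with a 2-fold ratio, control 2 was apart and lower in 2, and control 3 was higher in 1 and lower in 1.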

How the data were processed

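Messenger RNA libraries of 3 control embryo samples were analysed. RNA of an integrity number over 7 was used with the NEBNext Ultra RNA kit, per the labels' protocols. Per the submitters' processing notes, the tools were Trimmomatic 0.30, HISAT2 2.0.1, HTSeq 0.6.1 and DESeq, with build Zv9; order, settings and strand are not given in the sources used here. Overlapping or antisense genes therefore cannot be told apart. The authors deposited whole-number counts per gene, not normalized. Per the file headers they also deposited RPKM, which equal counts over exonic length and library total within 0.005. The exonic length per gene is another deposited value. The table also has 6 columns of per-sample values that match none of the samples, and these were left out.

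The members and the 42 gene lists (1284 names, 72 of them not found; symbols matched regardless of case) were chosen with earlier results of these data known. There is 1 group, so no test between groups was made. A list share is the sum over all its genes found, expressed or not. Shares are of summed RPKM. The counting CV is the Poisson value from the counts. A library was called apart where it lay farther than the other from the middle of the 3 on the log2 scale. Dispersion was estimated with edgeR 4.0.16 in R 4.3.3 (filterByExpr, TMM, intercept only), a step tested on simulated data. Genes named are the 20 highest, up to 4 highest and the defining markers per list, the 15 most variable at a mean of at least 5 RPKM, the 5 most stable at 50 or more, trdmt1 and the genes nearest the threshold. Fewer are printed, and others were chosen after seeing their values. Alternatives were other thresholds, TPM, TMM, DESeq2 1.42.0 size factors, a pseudocount, shares of reads, leaving out mitochondrial genes and leaving out each control. The reference tables give no sequences or coordinates of the build used, and none are printed.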

Additional observations from a re-analysis of the deposited data

How the results depend on the processing

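The number of expressed genes, 17085, stayed between 14551 and 19483 under other thresholds and between 17256 and 17622 when a control was left out, and the median CV stayed between 12.4% and 14.3%. As a share of counted reads the 10, 100 and 1000 most abundant genes held 6.17%, 22.6% and 50.5%, since RPKM divides by length. Without the mitochondrially encoded genes they held 9.57%, 33.4% and 64.0%. The number of genes with a 2-fold ratio, 1094, was 1034 to 1052 with TMM, DESeq2 size factors or TPM. It was 598 (3.95% of 15145) among genes with at least 50 reads in all 3 controls, 4585 (19.9% of 23040) with no filter on low values and 443 after a pseudocount of 1 RPKM. With a control left out it was 432 to 537, a ratio of 2 libraries being smaller by construction. The edgeR coefficient was 0.197 with no filter and 0.170 without control 1 to 0.199 without control 3. Of 42 list shares 35 moved by more than 1 SD on the scale of counted reads, 4 of 42 when only expressed genes were summed and 18 of 41 without the mitochondrially encoded genes. Counts of genes of a list that were highest or lowest in a control were also taken with TMM and DESeq2 size factors, chosen after seeing the data, and every one that the text gives stayed within 1.5 times its value. No paired analysis was possible because only 1 group was used. Depth limits the low genes: 1940 expressed genes had under 50 reads in some control and 129 had under 10. With 3 libraries an SD is itself imprecise, and intervals for single genes are not given.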

Other observations

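Zebrafish carry many duplicated genes, and pairs whose symbols differ only in a final a or b give a further view of the controls. The pairs were chosen after the data were seen, and a shared name does not show that both arose from 1 duplication. Both copies were expressed in 1848 of 2605 pairs, 1 copy in 554 and neither in 203. Where both were expressed, the median difference between copies was 2.01-fold, and 347 pairs were 4-fold or more apart. The same copy was the higher in all 3 controls in 1602 of the 1848 pairs (86.7%), and the median SD of the log2 ratio of a over b was 0.23. Among pairs given the same KEGG ortholog by the authors' annotation, the same copy was higher in all 3 controls in 397 of 457 (86.9%).

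Some pairs were nearly all one copy. The striated muscle actin actc1a averaged 189 RPKM beside 9113 RPKM for actc1b, a log2 ratio of -5.61 ± 0.42. For fabp7a and fabp7b, fatty acid binding proteins of brain, the log2 ratio was 6.96 ± 0.16. The muscle creatine kinases ckma and ckmb were instead even, at -0.04 ± 0.07. The apolipoproteins apoea and apoeb changed order between libraries, with log2 ratios of -0.26, 0.65 and -0.54 in controls 1, 2 and 3. Reads shared between near-identical copies make such ratios uncertain.

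Annotation terms give the spread from another side. Of 734 terms with at least 20 expressed genes, visual perception had 10 of 38 genes with a 2-fold ratio (26.3%), steroid hormone mediated signaling pathway 13 of 55 (23.6%) and hormone activity 9 of 50 (18%), where all expressed genes had 6.4%. The first of these covers photoreceptor genes already described. In 148 of the 734 terms no gene had such a ratio. At 6.4% over all expressed genes a term of about 20 genes can hold none, so that count was not read as evenness.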
